A study of Mus musculus with 4 samples.

Results

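Tdrd9, Clba1 and 8 genes that lie near them on distal mouse chromosome 12 were followed in osteoclast precursors with and without the mechanosensitive cation channel Piezo1. These are 10 of the 12799 genes in the deposited table, and all 10 passed the filter on low values. Tdrd9 and Clba1 were chosen by their log2 fold changes in this same comparison, the lowest of all genes tested, so their values are a description, with no test. Ppp1r13b, Siva1, Inf2, Akt1, Pld4, Cdca4, Brf1 and Btbd6 were chosen for their position, and the question asked of each was whether it was lower too.

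Poly(A) RNA came from bone marrow-derived monocytes of female mice aged 12 weeks. The cells had been grown for 3 days with M-CSF at 30 ng/mL and RANKL at 50 ng/mL, the cytokine that starts osteoclast formation. Knockout cells carried floxed Piezo1 alleles and the Csf1r-iCre transgene, whose recombinase acts in the monocyte and macrophage lineage (n = 2), and control cells carried the floxed alleles without that transgene (n = 2). Loss of Piezo1 and effects of the transgene itself therefore cannot be told apart, and the sources used here state neither the strain background, nor the chromosomal position of the transgene, nor which exons were floxed. The design text describes the libraries as biological replicates. Libraries held 14122118 to 18897927 gene reads, and levels are given in CPM, gene reads brought to a common library size with TMM scaling. Piezo1, the targeted gene, was at 60.98 and 56.2 CPM in knockout libraries, against 430.1 and 384 CPM in control libraries, so both knockout libraries lay below both controls. All 12 monocyte, macrophage and osteoclast markers examined were detected, from Adgre1 at 36.0 to 51.7 CPM in knockout libraries and 26.3 to 49.9 CPM in control libraries up to Ctsk at 23577 to 26656 CPM in knockout libraries and 23060 to 23825 CPM in control libraries. All 12 had log2 fold changes above 0, with a median of 0.14, whereas 49.5% of all tested genes were below 0. Their summed level, most of it from Ctsk, was 39720 and 47160 CPM in knockout libraries, against 40448 and 39585 CPM in control libraries. Limma called 0 of the 12, beside 0.161% of all tested genes. Dcstamp, which encodes a cell fusion protein of osteoclasts, was the 1 marker with an unadjusted p under 0.05 (log2 fold change 0.38, limma adjusted p = 0.475). At that threshold 1.35% of all tested genes were higher.

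Tdrd9 and Clba1 are known from separate pathways. Tdrd9 encodes a DExH-box RNA helicase with a tudor domain, known in mouse male germ cells for silencing retrotransposons together with PIWI proteins and their small guide RNAs, the piRNAs. Clba1 encodes a protein with the clathrin-binding box of aftiphilin, and clathrin coats the vesicles that carry cargo between the Golgi, endosomes and plasma membrane. The neighbours have roles of their own in apoptosis, actin assembly, kinase signalling, nucleic acid breakdown and transcription.

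The segment from the start of Ppp1r13b to the end of Brf1 covered 1.17 Mb of chromosome 12, from 111828457 to 113000704 in GRCm38. Tdrd9 (ENSMUSG00000054003.13, plus strand, 111971559 to 112068854) lies nearer its proximal end, and Clba1 (ENSMUSG00000037594.11, plus strand, 112808937 to 112816252) lies 0.740 Mb further along. Between them the annotation places 12 protein-coding genes, of which 8 had a row in the table: Inf2, Adssl1, Siva1, Akt1, Zbtb42, Cep170b, Pld4 and Ahnak2. The nearest of these to Tdrd9 was Inf2, 0.520 Mb away, whereas Cdca4 starts 0.00398 Mb beyond the end of Clba1 and Ahnak2 ends 0.00628 Mb before its start.

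RefSeq promoter windows (GRCm38.p6, from 250 bases before to 50 bases after each annotated start) were found for 9 of the 10 genes. The windows of 3 genes are shown because these members had the lowest log2 fold changes, Tdrd9 (chr12:111971309-111971608, plus strand), Clba1 (chr12:112808725-112809024, plus strand) and Pld4 (chr12:112760405-112760704, plus strand). Capitals mark the E-box letters CACGTG, the GC box letters GGGCGG (reverse complement CCGCCC) and the PU.1-type letters GAGGAAGT, searched on both strands. The sequences run 5′ to 3′ on the strand of the gene.
Tdrd9: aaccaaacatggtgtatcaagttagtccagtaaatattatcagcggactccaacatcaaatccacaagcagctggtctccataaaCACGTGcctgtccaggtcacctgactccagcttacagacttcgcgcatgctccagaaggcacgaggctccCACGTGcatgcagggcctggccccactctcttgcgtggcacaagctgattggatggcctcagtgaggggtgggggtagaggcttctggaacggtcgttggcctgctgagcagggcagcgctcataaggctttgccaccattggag
Clba1: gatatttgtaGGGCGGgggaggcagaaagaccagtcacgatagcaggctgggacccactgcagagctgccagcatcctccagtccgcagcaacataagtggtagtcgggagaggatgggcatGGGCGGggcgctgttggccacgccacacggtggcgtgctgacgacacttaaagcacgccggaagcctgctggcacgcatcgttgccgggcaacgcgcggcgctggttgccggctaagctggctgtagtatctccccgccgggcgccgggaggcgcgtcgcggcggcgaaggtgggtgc
Pld4: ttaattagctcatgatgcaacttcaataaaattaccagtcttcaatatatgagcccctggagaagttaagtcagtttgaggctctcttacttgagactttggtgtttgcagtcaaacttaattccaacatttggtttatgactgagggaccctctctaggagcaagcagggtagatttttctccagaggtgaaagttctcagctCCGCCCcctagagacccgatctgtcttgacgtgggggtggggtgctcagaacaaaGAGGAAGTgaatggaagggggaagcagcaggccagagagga

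The promoter windows of Tdrd9 and Clba1 shared none of these motifs. That of Tdrd9 held 2 E-boxes, whose first bases lie 165 and 95 bases before the start, and no GC box, while that of Clba1 held 2 GC boxes, 240 and 128 bases before the start, and no E-box. The window of Pld4 held 1 GC box, 46 bases before the start, and 1 PU.1-type match that begins at base 10 of the transcript. Over all 32851 promoter windows, 7.15% held an E-box, 35.7% a GC box and 3.20% the PU.1-type letters. GC boxes also occurred in windows of Ppp1r13b, Siva1, Inf2, Akt1, Cdca4 and Btbd6, and an E-box in those of Inf2. Matches within the 3 windows did not overlap one another. Searches for TATAAA and for the AP-1 letters TGANTCA found no match in these 3 windows, against 13.6% and 7.81% of all windows, and CCAAT or its reverse complement occurred 2 times in that of Tdrd9, against 37.4% of windows with a match. The windows differed in base composition, with 10 CpG dinucleotides for Tdrd9, 30 for Clba1 and 3 for Pld4, beside a median of 7 over all windows. A match is a run of letters only and was not tied to any measurement here.

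Tdrd9 transcript was scarce in knockout cells and plentiful in control cells. Its level was 1.65 CPM (25 reads, 95% Poisson interval, which covers counting error only, 1.07 to 2.44) and 3.86 CPM (71 reads, 3.01 to 4.87) in knockout libraries 1 and 2. In control libraries 1 and 2 it was 105 CPM (1618 reads, 100.02 to 110.3) and 117 CPM (1670 reads, 111 to 123). Both knockout libraries lay far below both controls, and the knockout libraries also differed from each other by more than counting error. The mean was 2.75 ± 1.56 CPM in knockout libraries and 111 ± 8.36 CPM in control libraries (SD, n = 2 each), so that 2.48% of the control level was left (log2 fold change −5.18, SE 0.29). On this scale, log2(CPM + 0.5), changes of low genes are understated. The 2 knockout libraries kept 1.49% and 3.48% of the control mean.

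Clba1 was lowered less, and more evenly across the libraries. It was at 3.83 CPM (58 reads, 95% Poisson interval 2.91 to 4.95) and 4.35 CPM (80 reads, 3.45 to 5.41) in knockout libraries. Control libraries had 39.0 CPM (601 reads) and 38.6 CPM (552 reads). The groups did not overlap, and within each genotype the 2 libraries agreed within counting error. Means were 4.09 ± 0.37 CPM in knockout libraries and 38.8 ± 0.28 CPM in control libraries (SD, n = 2 each), which leaves 10.5% of the control level (log2 fold change −3.10, SE 0.14). Of all 11781 genes tested, Tdrd9 had the lowest log2 fold change and Clba1 the next lowest, a ranking that follows from how they were chosen. In bulk RNA, fewer cells of a type that makes a transcript and less transcript per cell cannot be told apart.

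**Figure D1:**
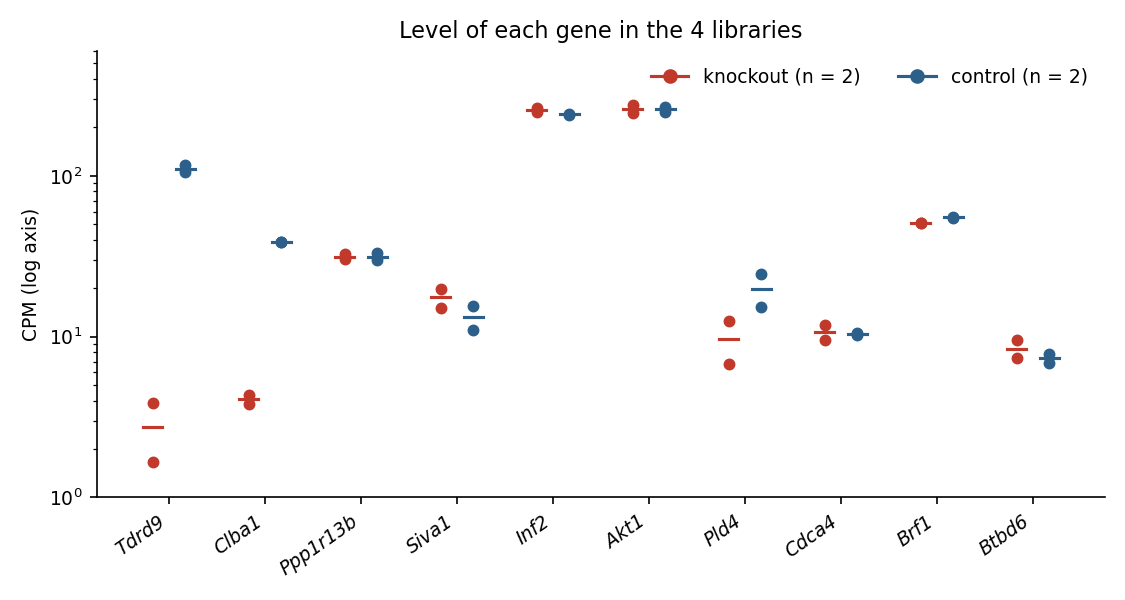
Level of each of the 10 genes in CPM on a log axis, with 1 point per library and a bar at the mean of 2 libraries, knockout left of control. Tdrd9 and Clba1 sit at 1.65 to 4.35 CPM in knockout libraries and at 38.6 to 117 CPM in control libraries, Pld4 is lower in both knockout libraries by a smaller margin, and the other 7 genes lie close together.

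None of the 8 neighbours passed the test with limma at a Benjamini-Hochberg adjusted p under 0.05, where 0.161% of the 11781 tested genes did in either direction and 0.119% as lower. edgeR's quasi-likelihood test called 0 of the 8 (0.161% of all genes, 0.119% as lower), and so did DESeq2 (0.535% of all genes, 0.467% as lower). At an unadjusted p under 0.05, 1 neighbour, Pld4, was lower, where 3.55% of all genes were, and 0 were higher, where 1.35% of all genes were (4.9% in either direction). By sign, 3 of the 8 were below 0, beside 49.5% of all genes, and 1, Pld4, was below −1, beside 0.365%. Groups did not overlap for 3 of the 8, beside 31.9% of all genes: Pld4 and Brf1 were lower (15.4% of all genes) and Inf2 was higher (16.5%). The 8 log2 fold changes ran from −1.02 for Pld4 to 0.39 for Siva1 with a median of 0.01, beside a median of 0.0016 over all tested genes. At this sample size (n = 2 each), p = 0.333 is the smallest value that an exact 2-sided permutation test of 1 gene can give.

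Siva1 and Ppp1r13b act in cell death. Ppp1r13b (chromosome 12, 111828457 to 111908110, minus strand) encodes ASPP1, a partner of p53 that favours the transcription of death genes. It ends 0.0634 Mb before Tdrd9 and was at 30.4 and 32.5 CPM in knockout libraries, against 33.2 and 29.7 CPM in control libraries. The libraries of the 2 genotypes were interleaved, and the log2 fold change was −0.0015 (95% confidence interval −0.27 to 0.27, limma adjusted p = 0.9997). Siva1 (112644679 to 112649149, plus strand) encodes a pro-apoptotic protein that binds the receptor CD27. It was at 19.9 and 15.2 CPM in knockout libraries, against 10.98 and 15.6 CPM in control libraries. Its groups overlapped because knockout library 2 lay just below control library 2. The log2 fold change of Siva1 was 0.39 (−0.09 to 0.88, limma adjusted p = 0.9997), so a fall of the size seen for Clba1 lies far outside the interval. With 1 library left out its log2 fold change ran from 0.15, without control library 1, to 0.64, without control library 2, and its limma adjusted p was 0.605 or more.

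Inf2 and Akt1 were the most abundant of the 10 genes per length and were near their control levels. Inf2 (112588784 to 112615557, plus strand) encodes a formin, a protein that builds and severs actin filaments. It was at 249.9 and 264 CPM in knockout libraries, against 244 and 239.7 CPM in control libraries. Both knockout values lay slightly above both controls, with a log2 fold change of 0.09 (−0.12 to 0.29, limma adjusted p = 0.9997). Akt1 (112653821 to 112674884, minus strand) encodes a serine and threonine kinase that carries growth factor signals downstream of phosphoinositide 3-kinase. It was at 245 and 278 CPM in knockout libraries, against 268 and 251 CPM in control libraries. Its groups overlapped fully, with a log2 fold change of 0.01 (−0.23 to 0.24, limma adjusted p = 0.9997). This value was −0.02 when reads were scaled by library size alone.

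Pld4 was the neighbour nearest to a fall. It encodes a transmembrane exonuclease of endosomes and lysosomes that degrades single-stranded nucleic acids and, in mice, restrains signalling through the DNA sensor TLR9. The gene (112760655 to 112768990, plus strand) ends 0.0399 Mb before Clba1. Its level was 12.5 CPM (190 reads) and 6.80 CPM (125 reads) in knockout libraries, against 24.4 CPM (376 reads) and 15.3 CPM (218 reads) in control libraries. Both knockout libraries were below both controls, but the gap between knockout library 1 and control library 2 was smaller than the spread within either genotype. Means were 9.67 ± 4.06 CPM in knockout libraries and 19.8 ± 6.48 CPM in control libraries (SD, n = 2 each), or 48.7% of the control level. Its log2 fold change, −1.02, had an SE of 0.31 and a 95% confidence interval from −1.74 to −0.31, and its adjusted p was 0.737 in limma, 0.763 in edgeR and 0.0963 in DESeq2. The call depended on the libraries used: without knockout library 1 the log2 fold change of Pld4 was −1.44 with a limma adjusted p of 0.0149, in a fit that called 0.645% of all genes, and without knockout library 2 it was −0.60 (adjusted p = 0.684). Over 15 alternatives its adjusted p ran from 0.00226, in a fit with a replicate block that called 0.755% of all genes, to 0.99999.

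Within each genotype, library 1 had more Pld4 than library 2, and of the 12 markers of monocytes, macrophages and osteoclasts 2 were ordered in that way in both genotypes. Adgre1, a surface marker of mature macrophages, was at 51.7 and 36.0 CPM in knockout libraries 1 and 2, against 49.9 and 26.3 CPM in control libraries 1 and 2. Lyz2, the myeloid lysozyme, was at 655 and 360.4 CPM in knockout libraries, against 561 and 344 CPM in control libraries. These 2 markers were singled out after their values were seen. The other 10 were not so ordered, and 9 of them were lower in knockout library 1 than in knockout library 2. The part of marker levels in the Pld4 values was not tested. Of 8 markers of plasmacytoid dendritic cells, which are rich in Pld4, 2 had a row: Tcf4 at 36.1 and 36.3 CPM in knockout libraries and 48.4 and 36.4 CPM in control libraries, and Il3ra at 7.59 and 5.65 CPM in knockout libraries and 7.01 and 8.54 CPM in control libraries. Of 8 B cell markers, 2 had a row and together reached 6.03 to 6.20 CPM in knockout libraries and 5.46 to 7.63 CPM in control libraries.

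The remaining 3 neighbours lie beyond Clba1 and were near their control levels. Cdca4 (112820229 to 112829423, minus strand), a SERTAD-domain regulator of transcription and the gene next to Clba1 in the table, was at 11.7 and 9.51 CPM in knockout libraries, against 10.3 and 10.6 CPM in control libraries. Its control values lay between its knockout values (log2 fold change 0.02, −0.36 to 0.41, limma adjusted p = 0.9997), and with no scaling factor its log2 fold change was −0.0018. Brf1 (112960085 to 113000704, minus strand), a subunit of the factor TFIIIB that recruits RNA polymerase III, was at 51.1 and 51.0 CPM in knockout libraries, against 55.9 and 54.9 CPM in control libraries. The groups were apart, but the difference was small and did not pass (log2 fold change −0.11, −0.34 to 0.11, limma adjusted p = 0.9997). Btbd6 (112976482 to 112978945, plus strand), a BTB-domain adaptor of the ubiquitin ligase scaffold CUL3, was at 7.33 and 9.51 CPM in knockout libraries, against 6.82 and 7.84 CPM in control libraries, with overlapping groups (0.18, −0.26 to 0.63, limma adjusted p = 0.9997). Btbd6 lies within Brf1 on the opposite strand over all 2464 bases of its length. The sources used here do not state whether counting used strand, so reads of the pair may be lost or credited to either gene. Rd3l, which had no row, overlaps Tdrd9 by 2207 bases on the opposite strand, where the same limit holds.

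**Figure D2:**
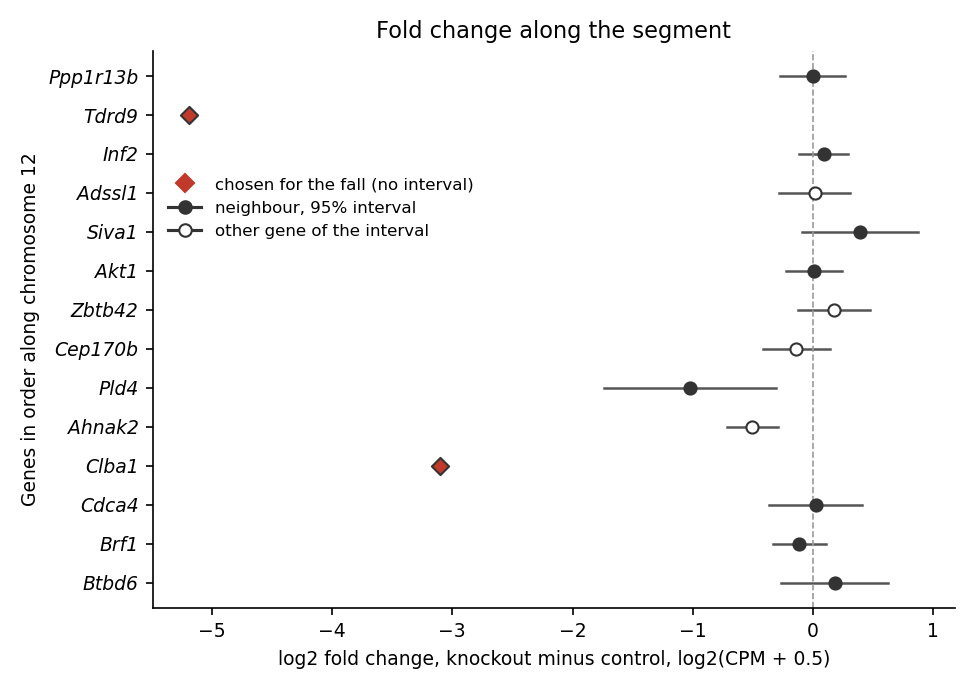
Log2 fold change, knockout minus control, of the 10 genes and of 4 further genes between Tdrd9 and Clba1, from top to bottom in order along chromosome 12. Bars are 95% confidence intervals from limma, and diamonds are the 2 genes chosen for their fall, drawn without one. The intervals of Pld4 and Ahnak2 lie below 0 and those of the other 10 genes include 0.

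Per kilobase of annotated exon, the order of the genes differed between genotypes. In control libraries Akt1 averaged 63.3 and Inf2 49.6 CPM per kb, followed by Tdrd9 at 20.5 and Clba1 at 19.8, whose ranges overlapped. Brf1 (7.11), Ppp1r13b (6.35), Pld4 (5.73), Siva1 (5.49), Btbd6 (3.15) and Cdca4 (2.48) came after them in control libraries. Over the range from Ppp1r13b to Siva1 neighbours in that order overlapped between libraries. In knockout libraries Akt1 (63.7) and Inf2 (52.8 CPM per kb) again led, followed by Siva1 (7.24), Brf1 (6.56), Ppp1r13b (6.34), Btbd6 (3.62), Pld4 (2.79) and Cdca4 (2.53 CPM per kb), and Clba1 (2.09) and Tdrd9 (0.51 CPM per kb) came last. Siva1 thus stood at place 3 in knockout libraries and at place 8 in control libraries, and in knockout libraries its range overlapped those of Brf1 and of Ppp1r13b. The range of Pld4 in knockout libraries (1.96 to 3.62 CPM per kb) overlapped those of Btbd6, Cdca4 and Clba1.

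The other genes of the interval were examined in the same way. Of the 8 genes between Tdrd9 and Clba1, 0 passed with limma or edgeR (0.161% of all genes with each) and 1 passed with DESeq2 (0.535% of all genes). That gene was Ahnak2, which encodes a giant scaffold protein and lies directly before Clba1 in the table (112772194 to 112802657, minus strand). Ahnak2 was at 58.1 and 58.7 CPM in knockout libraries, against 83.8 and 82.5 CPM in control libraries. The libraries of each genotype were tightly grouped and did not overlap, and 70.2% of the control level was left (log2 fold change −0.51, SE 0.09, 95% confidence interval −0.72 to −0.29). The adjusted p of Ahnak2 was 0.170 in limma, 0.166 in edgeR and 0.0434 in DESeq2, and over 15 alternatives it ran from 0.0434 to 0.748. Adssl1, an enzyme of AMP synthesis, was at 173 and 221 CPM in knockout libraries, against 200.3 and 187 CPM in control libraries, with full overlap. Zbtb42, a zinc finger gene, and Cep170b, which encodes a protein related to the centrosomal CEP170, had log2 fold changes of 0.17 and −0.14, and neither passed (limma adjusted p = 0.9997 each). Of the 8 genes of the interval 3 were lower and 5 higher by sign, with a median log2 fold change of 0.01, and 2, Pld4 and Ahnak2, had both knockout libraries below both controls, beside 15.4% of all genes. Another 2, Inf2 and Zbtb42, had both knockout libraries above both controls, beside 16.5% of all genes.

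Genes flanking the interval did not pass either. Atp5mpl, a small subunit of mitochondrial ATP synthase, ends 0.00458 Mb before Tdrd9 and was at 247 and 241 CPM in knockout libraries, against 196 and 242 CPM in control libraries (log2 fold change 0.17, limma adjusted p = 0.9997). Zfyve21, which overlaps Ppp1r13b by 3736 bases on the opposite strand, had a log2 fold change of 0.32, and Gpr132, a G protein-coupled receptor beyond Cdca4, had one of 0.11 (limma adjusted p = 0.9997 each). Jag2, a Notch ligand 0.0916 Mb beyond Clba1, was at 0.86 and 0.92 CPM in knockout libraries, against 1.36 and 1.96 CPM in control libraries (−0.62, limma adjusted p = 0.9997). Both knockout libraries lay below both controls, at 13 and 17 reads, and Jag2 passed the filter through its control libraries only. At so few reads a fall of Jag2 can be neither shown nor excluded.

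In wider windows, without Tdrd9 and Clba1, 0 of 38 genes within 1 Mb and 0 of 44 within 2 Mb passed with limma, with 3 lower and 1 higher at an unadjusted p under 0.05 in each window. edgeR also called 0 in both windows, and DESeq2 called 1, Ahnak2 (2.63% of the genes within 1 Mb and 2.27% within 2 Mb). Within 5 Mb, 1 of 60 genes passed with limma and 3 (5.0%) with DESeq2, and all were lower. Over all tested genes, limma called 0.161% and DESeq2 0.535%. Ccdc85c, a coiled-coil gene 3.70 Mb before Tdrd9, was at 10.6 and 12.9 CPM in knockout libraries, against 27.1 and 26.0 CPM in control libraries (log2 fold change −1.15, limma adjusted p = 0.0389). It did not pass without control library 1, without control library 2 or without an intensity trend, and its adjusted p over 15 alternatives ran from 2.5e-05 to 0.355. Ncapg2, a subunit of condensin II that lies 3.59 Mb beyond Clba1, was at 36.6 and 28.3 CPM in knockout libraries, against 66.4 and 63.0 CPM in control libraries. It fell with DESeq2 (adjusted p = 5.01e-06) and did not pass in the reported limma fit (log2 fold change −0.99, adjusted p = 0.0664). Ncapg2 did pass in limma with no filter (adjusted p = 0.0477) and with a replicate block (0.00022). Over the alternatives that kept all 4 libraries its adjusted p ran from 5.01e-06 to 0.362. The log2 fold change of Ncapg2 was −1.18 without knockout library 1 and −0.81 without knockout library 2. It was −0.96 without control library 1 and −1.03 without control library 2. At an unadjusted p under 0.05, 8 of the 60 genes within 5 Mb (13.3%) were lower and 1 was higher, beside 3.55% and 1.35% of all tested genes. Over the whole of chromosome 12, 4.04% of 396 genes were lower at that threshold.

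**Figure D3:**
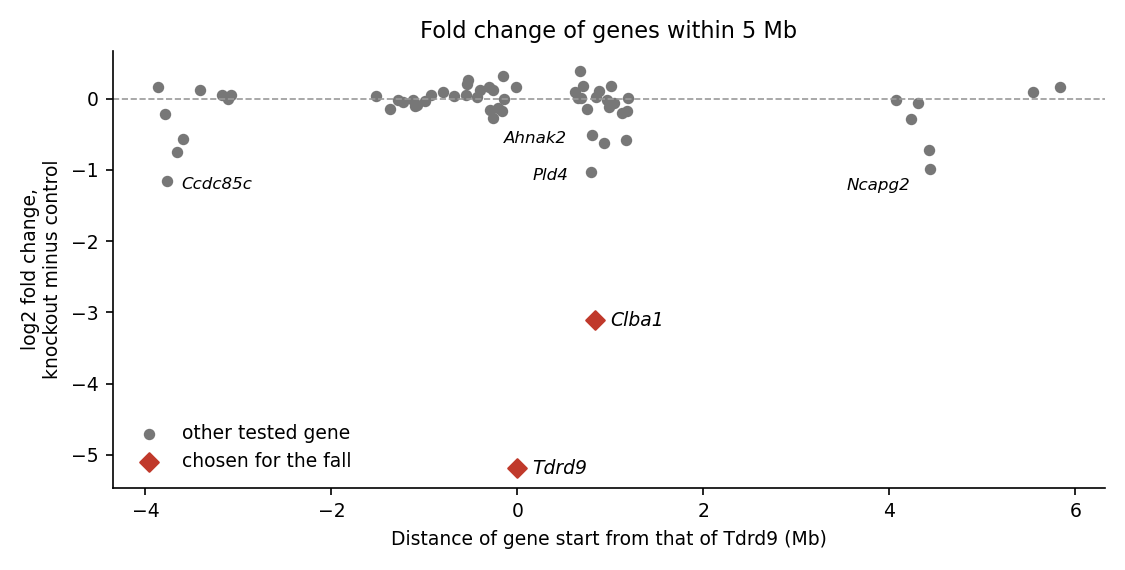
Log2 fold change, knockout minus control, of tested genes within 5 Mb of Tdrd9 or Clba1, plotted against the distance between gene starts and that of Tdrd9 in Mb. Diamonds are the 2 genes chosen for their fall, at −5.18 and −3.10. The other 60 genes lie between −1.15 and 0.39, and the lowest 3 are Ccdc85c, Pld4 and Ncapg2.

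Other genes of the piRNA pathway did not pass the test, but Piwil1, Piwil4, Mael, Ddx4 and Tdrd1 had no row and could not be tested. Of 35 other pathway genes 14 had a row and 13 were tested, and limma, edgeR and DESeq2 each called 0. Over all tested genes limma and edgeR each called 0.161% and DESeq2 0.535%. Piwil2, Tdrd5 and Rnf17 received no adjusted p in DESeq2, which therefore could not call them. None of the 13 had an unadjusted limma p under 0.05, beside 4.9% of all tested genes. Their log2 fold changes ran from −0.11 to 0.24, with a median of −0.03. Piwil2, a germline PIWI protein, was at 1.25 and 0.82 CPM in knockout libraries, against 1.23 and 0.70 CPM in control libraries. Tdrkh, a tudor protein that helps trim piRNAs, was at 15.4 and 18.2 CPM in knockout libraries and 18.4 and 17.3 CPM in control libraries. Prmt5, which methylates the arginines that tudor domains bind, had the smallest unadjusted p of the list (0.335). Of 10 germ cell markers 2 had a row, Tex14 and Piwil2, with summed levels of 3.17 and 2.12 CPM in knockout libraries and 2.21 and 3.36 CPM in control libraries. Control cells thus held Tdrd9 at 105 and 117 CPM beside little of these 2 germ cell transcripts. The 20 other DExH-box helicases ran from −0.43 to 0.18, with 0 calls by limma, edgeR and DESeq2 and 0 genes under an unadjusted p of 0.05. The same shares over all genes apply, and with shares so low 0 calls say little about lists of this size. Dhx58, the lowest of the 20, received no adjusted p in DESeq2.

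Clathrin and its adaptors did not pass either. All 35 tested genes of the 36 listed stayed between −0.13 and 0.26 in log2 fold change, with a median of 0.02. There were 0 calls by each of limma, edgeR and DESeq2, beside 0.161%, 0.161% and 0.535% of all tested genes. Under an unadjusted limma p of 0.05 there were 0 genes, beside 4.9% of all tested genes. Aftph, which encodes aftiphilin itself, was at 91.5 and 93.8 CPM in knockout libraries, against 88.2 and 88.9 CPM in control libraries. Cltc, the clathrin heavy chain, was at 656 and 586 CPM in knockout libraries and 636 and 595 CPM in control libraries. The lowest unadjusted p was that of Ap1b1, a subunit of the AP-1 adaptor of the Golgi (log2 fold change 0.22, unadjusted p = 0.0669, limma adjusted p = 0.9997).

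The pathways of the neighbours showed few differences. With limma and edgeR 0 members passed among 29 AKT signalling genes, 20 formin and actin assembly genes, 18 p53 partner and apoptosis genes, 18 endolysosomal exonuclease and nucleic acid sensing genes, 32 SERTAD and E2F cell cycle genes, 30 RNA polymerase III genes and 17 BTBD and CUL3 genes. These lists include neighbours themselves, such as Akt1 and Pld4. Over all tested genes limma and edgeR each called 0.161%. DESeq2 called 1 gene in these 7 lists, Ccnd2, a D-type cyclin, beside 0.535% of all tested genes. Ccnd2 was at 26.5 and 21.3 CPM in knockout libraries, against 36.2 and 44.9 CPM in control libraries (log2 fold change −0.75, limma adjusted p = 0.264). Pld3, the closest relative of Pld4, was at 145 and 151 CPM in knockout libraries and 139 and 138 CPM in control libraries. Medians of the 7 lists lay between −0.11 and 0.06, beside 0.0016 over all tested genes. At an unadjusted p under 0.05, where 1.35% of all genes were higher, Phlpp1, an AKT phosphatase, was higher (0.30), as was the formin gene Fmnl3 (0.22). Neither passed (limma adjusted p = 0.931 and 0.987). At the same threshold 2 endolysosomal genes, Pld4 and Rnaset2b, and 2 SERTAD and E2F genes, Ccnd2 among them, were lower, beside 3.55% of all genes.

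**Figure D4:**
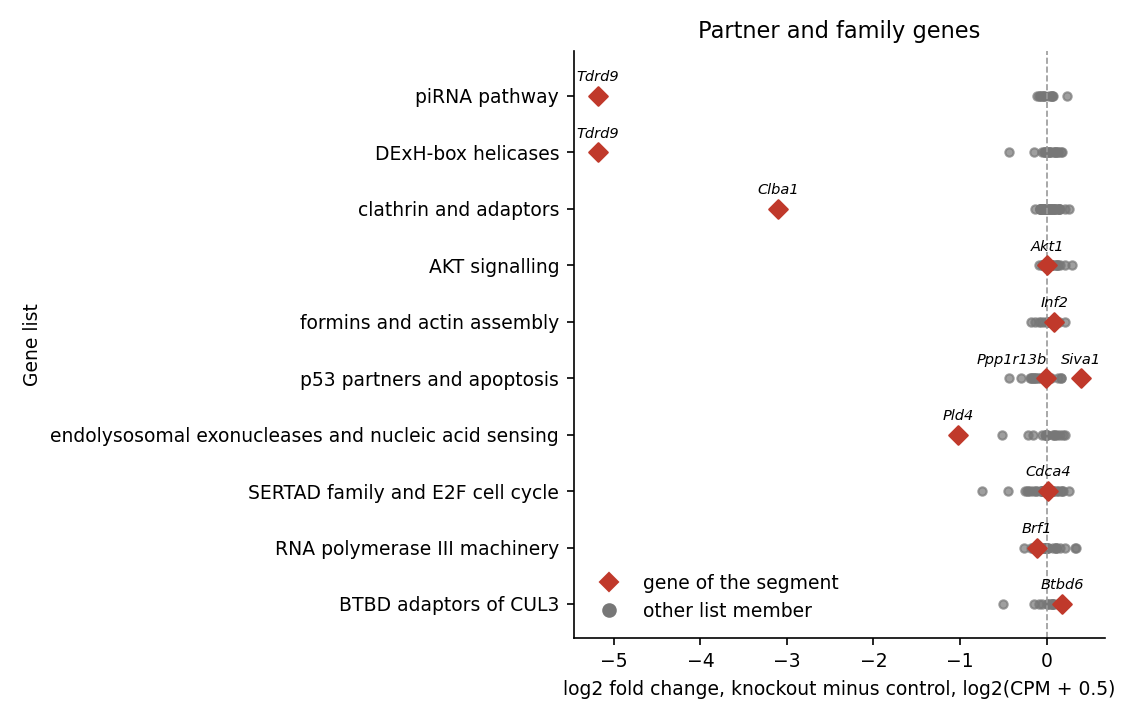
Log2 fold change, knockout minus control, of the members of 10 gene lists, 1 point per gene, with the genes of the segment as diamonds. Tdrd9 and Clba1 stand at −5.18 and −3.10, while the other members of their lists lie between −0.43 and 0.26.

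Likeness to Tdrd9 and Clba1 over the 4 libraries was measured as the Euclidean distance between log2(CPM + 0.5) values centred on each gene's mean over the 4 libraries, so that both direction and size count. Nearest to Tdrd9 were Clba1 (distance 2.17), Piezo1 (2.54), Celf3 (3.45), Inhba (3.67) and Ankrd1 (3.68), against a length of 5.24 for the centred profile of Tdrd9 itself. Nearest to Clba1 were Piezo1 (0.39), Celf3 (1.29), Inhba (1.56), Pappa (1.68) and Has2 (1.70), with a profile length of 3.10. Celf3, an RNA-binding protein, was at 0.73 and 0.43 CPM (11 and 8 reads) in knockout libraries, against 3.25 and 3.64 CPM in control libraries. Celf3 passed the filter of 1 CPM in 2 libraries through its control libraries only, so its place in both orders is a description. Has2, a hyaluronan synthase, was at 3.30 and 1.96 CPM in knockout libraries, against 8.83 and 7.56 CPM in control libraries. Tdrd9 was at rank 40 in distance from Clba1. Apart from Tdrd9 and Clba1 themselves, the genes named here lie on other chromosomes, and the likeness uses the same comparison by which both genes were chosen.

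Markers of other cell types were measured in the same libraries. Of 16 stromal, fibroblast and osteoblast markers 14 had a row and were tested, and 13 were lower by sign, with a median log2 fold change of −0.54. Limma and edgeR called 0 of the 14 (0.161% of all genes with each) and DESeq2 called 7 (0.535% of all genes). At an unadjusted limma p under 0.05, 8 were lower (3.55% of all genes), and 10 had both knockout libraries below both controls (15.4% of all genes). Their summed level was 1352 and 1273 CPM in knockout libraries, against 1928 and 2418 CPM in control libraries. The part of stromal cells in the levels of the 10 genes was not tested. Neutrophil markers, 7 of 10 with a row, summed to 54.4 and 53.5 CPM in knockout libraries and 46.6 and 85.8 CPM in control libraries, and of 8 T and NK cell markers 1, Trac, had a row, at 1.32 and 3.21 CPM in knockout libraries and 2.40 and 1.40 CPM in control libraries.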

How the data were processed

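The deposited file holds 12799 genes by 4 poly(A) RNA libraries, as a signal that the authors had normalised. STAR, featureCounts from Subread, edgeR and the build mm10 (GRCm38) are named in the submitters' processing notes, while the sources used here state neither a filter on low genes nor the annotation release or strand setting. Every value was a whole multiple of the smallest positive value of its column (100% within 0.001 reads), and CPM with TMM scaling from the reads so recovered matched the deposited signal to within 4.9e-11, so the signal is read as CPM.

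Genotype was the sole term of a 2-sided limma model of log2(CPM + 0.5) whose variance prior followed intensity. Of all genes 11781 reached 1 CPM in 2 libraries and entered it, with Benjamini-Hochberg adjustment over all of them. edgeR and DESeq2 on the recovered reads were run as alternatives. DESeq2 gave no adjusted p to some genes of low level, such as Piwil2 and Jag2, and these count as not called. The members and lists were chosen with earlier results of these data known. Named besides the members were genes between and next to Tdrd9 and Clba1, genes within 5 Mb by smallest p, the 5 nearest profiles of each, and the genes of each list that passed or had the smallest p; others were chosen after their values were seen. Gene positions are those of GENCODE M21 (GRCm38), with a unique position for 12680 symbols, and exon lengths are the union of annotated exons. Poisson intervals cover counting error only. Every pair of libraries differed beyond sampling noise. Chi-square per degree of freedom was lowest between the 2 control libraries (11.2) and highest between the 2 knockout libraries (22.5), above every pair of unlike genotype. DESeq2 1.42.0, edgeR 4.0.16 and limma 3.58.1 ran under R 4.3.3, the rest under Python 3.11.15.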

Additional observations from a re-analysis of the deposited data

How the results depend on the processing

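Over 15 alternatives (other pseudocounts, filters, scalings and variance models, a replicate block, edgeR, DESeq2 and each library left out) the log2 fold change stayed between −5.69 and −4.67 for Tdrd9, between −3.25 and −2.97 for Clba1 and between −1.44 and −0.60 for Pld4. Filters, limma variance models and the replicate block cannot change a log2 fold change in this design, so these ranges come from the other alternatives. The whole table gave 19 calls, 63 with DESeq2, 4 without an intensity trend and 7 to 76 with 1 library left out. Calls among the 8 neighbours, 0 in the reported fit, were 0 to 1 with 1 library left out, and 0 to 1 also between Tdrd9 and Clba1, where DESeq2 called 1, Ahnak2. Within 5 Mb, 1 call became 2 with no filter, 0 without an intensity trend, 3 with DESeq2 and 0 to 3 with 1 library left out. Leaving out a library leaves 1 library in an arm, which is then assumed to vary like the others. Log2 fold changes near 0 changed sign: with no scaling factor that of Akt1 was −0.0157 and that of Cdca4 −0.00180, and with 1 library left out Ppp1r13b ran from −0.0791 to 0.0761, Akt1 from −0.0819 to 0.10 and Cdca4 from −0.12 to 0.17. The cause was not tested.

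The sources used here state no pairing of libraries. Same-numbered libraries did not deviate together over all genes (correlation of deviations −0.0016), so replicate numbers were not taken to pair them. A correlation over all genes cannot exclude a pairing that affects some of them. With the replicate block, 89 genes passed (0.755% of those tested), with 1 neighbour, Pld4 (adjusted p = 0.00226), 1 gene between Tdrd9 and Clba1, again Pld4, and 3 genes within 5 Mb. Depth limits Tdrd9 in knockout libraries, at 25 and 71 reads, and 2 libraries per genotype limit every interval.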
